A study of Mus musculus with 8 samples.

Results

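The glycolysis genes described here are 10 members that span the path from glucose uptake to the control of pyruvate use: Slc2a1, Hk1, Hk2, Pfkl, Pfkp, Aldoa, Pkm, Ldha, Pdk1 and Pfkfb3. Each member was the locus that carried its symbol in the table of 48607 assembled loci, and where several loci carried it, the one with the most counts over all libraries was taken. All 10 had a locus, and all 10 passed the filter of at least 1 FPKM (sequenced fragments, corrected for length and for the size of the library) in at least 3 libraries, as did 20506 loci in all. The length assigned to each locus was not examined, so FPKM compares a gene between libraries better than it compares genes with each other. The rule used names and total counts, not differences between groups.

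Poly(A) RNA of whole aortas was sequenced in 8 libraries from mice fed a Western diet for 12 weeks, 5 titled ApoE-/- and 3 titled ApoE-/-NPRC-/-. All groups lacked apolipoprotein E, which makes mice prone to atherosclerosis, and the ApoE-/-NPRC-/- group also lacked natriuretic peptide receptor C in every tissue, through a frameshift made by CRISPR in exon 1 of its gene Npr3. The ApoE-/- mice were littermates, and the age at sampling is not given in the sources used here. The whole aorta was taken, so smooth muscle, endothelium, plaque cells and the surrounding fat all contributed RNA, and fewer cells of a type and less RNA per cell cannot be told apart.

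The genotype entry of a library named the same genotype as its title in 4 libraries and the other genotype in 4. The libraries titled ApoE-/- 4 and 5 were entered as lacking both genes, and those titled ApoE-/-NPRC-/- 1 and 2 as lacking only ApoE. Groups were therefore formed by title, and the comparison of each member is also given by genotype entry, which likewise gives 5 against 3. The Npr3 locus was at 1.69, 0.93, 0.62, 1.01 and 1.67 FPKM in the libraries titled ApoE-/- and at 1.18, 1.39 and 1.13 FPKM in those titled ApoE-/-NPRC-/-. These overlapped, so the transcript level of the targeted gene separated the groups of neither label. Total counts ran from 62969165 to 86693276 per library.

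Glycolysis splits glucose into pyruvate in the cytosol, and its flux is set mainly at glucose entry, hexokinase, phosphofructokinase and pyruvate kinase. Pyruvate then either becomes lactate or enters the mitochondrion, where pyruvate dehydrogenase, held back by its kinases, makes acetyl-CoA. Macrophages and smooth muscle cells of the plaque are known to use glycolysis heavily, and hypoxia-inducible factor 1 (HIF-1) is the best known activator of many of these genes.

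HIF-1 binds DNA at the core letters ACGTG, and the promoters of 4 members that hold these letters near the start site are shown, one from each of uptake, phosphorylation, lactate formation and regulation. Each is the stretch of 100 bases just before the RefSeq start site in GRCm38.p6, in the direction of transcription, with ACGTG or its reverse complement CACGT in capitals. They lie at chr4:119108645-119108744 (Slc2a1, plus strand), chr6:82774455-82774554 (Hk2, minus strand), chr7:46845704-46845803 (Ldha, plus strand) and chr2:11553930-11554029 (Pfkfb3, minus strand).
Slc2a1: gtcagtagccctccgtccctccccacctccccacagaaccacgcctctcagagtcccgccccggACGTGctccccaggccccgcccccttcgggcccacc
Hk2: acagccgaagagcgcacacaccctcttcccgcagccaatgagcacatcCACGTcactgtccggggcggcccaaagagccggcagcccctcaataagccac
Ldha: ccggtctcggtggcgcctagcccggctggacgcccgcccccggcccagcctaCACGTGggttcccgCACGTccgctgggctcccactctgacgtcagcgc
Pfkfb3: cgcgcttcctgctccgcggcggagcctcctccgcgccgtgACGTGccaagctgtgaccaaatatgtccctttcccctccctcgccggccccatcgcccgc

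Over the 250 bases before each start site, on both strands, the letters stood in 8 of the 17 RefSeq windows of the members, which belonged to 6 of the 10 genes. Aldoa and Pkm held them only before a start site other than the one listed first, and both Aldoa windows that held them overlap and share the same match. Of all 32851 windows of that length, 16.6% held them. Ldha had 5 matches in its window, of which 4 lay on both strands of the palindrome CACGTG, the E-box letters that MYC and other factors also bind and that 6.02% of all windows held. A match of 5 letters is a description of the sequence and not a binding site, and no binding was measured.

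Compared by title, none of the 10 members passed the test for a difference between ApoE-/- and ApoE-/-NPRC-/- aortas. Their log2 fold changes (ApoE-/-NPRC-/- minus ApoE-/-) ran from -0.17 for Ldha to 0.32 for Pfkfb3, 6 positive and 4 negative, with a median of 0.057 beside a median of -0.006 over all loci tested. At an unadjusted p-value under 0.05 in edgeR's quasi-likelihood test, 0 of 10 members were called, where 13.6% of all loci tested were (7.13% lower and 6.51% higher). At the study's criterion, which asks for an unadjusted p-value under 0.05 and a fold outside 0.5 to 2, 0 of 10 members were called, against 3.47% of loci. At an adjusted p-value under 0.05 edgeR called 0 members and 0.0% of loci. The titled groups overlapped for all 10 members, while 7.41% of loci had groups that did not.

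By genotype entry the members were again not called, with log2 fold changes from -0.25 for Pfkfb3 to 0.07 for Pfkp, 3 positive and 7 negative. Unadjusted p-values under 0.05 were found for 1.31% of loci and for 0 of 10 members, and adjusted ones for 0.0% of loci. The sign of the fold change differed between the labels for 5 members. DESeq2, and limma on log2(FPKM + 1), also called 0 of 10 members at an unadjusted p-value under 0.05.

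Each interval covers the difference of 1 gene between the groups as labelled. Where a label is wrong for some libraries, the interval is no bound on the effect of the genotype. By title the 95% intervals of the 10 folds lay between 0.636 (the lower bound of Ldha) and 1.71 (the upper bound of Pfkfb3), and by genotype entry between 0.574 and 1.44 (both bounds of Slc2a1). A fold of 2 or of 0.5 lay outside every one of them under both labels.

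**Figure D1:**
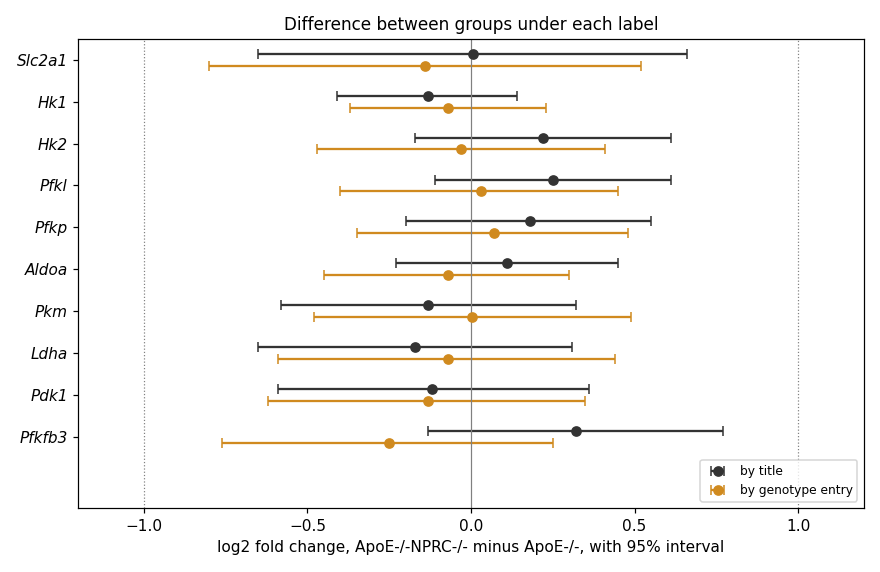
The log2 fold change of each gene (x axis, ApoE-/-NPRC-/- minus ApoE-/-) is plotted with its 95% interval from edgeR's quasi-likelihood fit, dark by title and ochre by genotype entry, and dotted lines mark a fold of 2 either way. All 20 intervals include 0 and none reaches a dotted line.

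Slc2a1 (ENSMUSG00000028645, chr4:119108711-119137983, plus strand, 5 annotated transcripts) encodes GLUT1, the transporter through which most cells take up glucose without insulin. It was at 5.68, 8.82, 10.02, 9.76 and 4.68 FPKM in the libraries titled ApoE-/- 1 to 5 and at 7.71, 8.62 and 7.17 FPKM in those titled ApoE-/-NPRC-/- 1 to 3. The 3 ApoE-/-NPRC-/- libraries lay inside the wide range of the ApoE-/- libraries, of which 1 and 5 were low and 3 and 4 high. Slc2a1 had the largest spread of the members, with an SD of 0.57 on the log2 CPM scale among the libraries titled ApoE-/-. The group means were 7.79 ± 2.45 FPKM (SD, n = 5) and 7.83 ± 0.733 FPKM (SD, n = 3). The log2 fold change of Slc2a1 was 0.007 (SE 0.29, adjusted p = 0.996 in edgeR) by title and -0.14 (SE 0.29, adjusted p = 1) by genotype entry.

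The other glucose transporters of the family were measured beside it. Slc2a4, the insulin-responsive GLUT4 of fat and muscle, was at 10.98, 17.42, 5.52, 8.27 and 15.57 FPKM and then 17.37, 16.77 and 14.75 FPKM in the same order of libraries, with a log2 fold change of 0.54 by title (adjusted p = 0.448 in edgeR) and -0.05 by genotype entry. It was lowest in ApoE-/- 3 and 4, where Slc2a1 was highest. Slc2a3, the neuronal and leukocyte transporter GLUT3, did not reach the FPKM filter and was not tested. It was at 0.8 to 1.09 FPKM by title in ApoE-/- and 0.55 to 0.66 FPKM in ApoE-/-NPRC-/-.

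Hexokinases trap glucose in the cell as glucose 6-phosphate. Hk1 (ENSMUSG00000037012, chr10:62268855-62379908, minus strand, 20 transcripts), the widely expressed isozyme, was at 6.81, 5.40, 6.14, 5.07 and 6.30 FPKM in ApoE-/- 1 to 5 and at 5.44, 5.46 and 5.09 FPKM in ApoE-/-NPRC-/- 1 to 3. It varied least of the members, with means of 5.94 ± 0.703 FPKM (SD, n = 5) and 5.33 ± 0.208 FPKM (SD, n = 3) in groups that overlapped. For Hk1 the log2 fold change was -0.13 (SE 0.12, adjusted p = 0.637 in edgeR), and -0.07 (SE 0.13, adjusted p = 1) by genotype entry.

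Hk2 (ENSMUSG00000000628, chr6:82725025-82774454, minus strand, 4 transcripts), the inducible isozyme of muscle and activated cells, was at 5.22, 4.56, 3.07, 3.05 and 4.46 FPKM in ApoE-/- and at 4.41, 4.48 and 4.97 FPKM in ApoE-/-NPRC-/-. ApoE-/- 3 and 4 stood below the other 6 libraries, which did not separate by title. This gave Hk2 a log2 fold change of 0.22 (SE 0.17, adjusted p = 0.58 in edgeR), and -0.03 (SE 0.19, adjusted p = 1) by genotype entry. A short second locus with the name Hk2, on the opposite strand, had 45 to 117 counts per library and was not added to it.

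Hk3, the isozyme that myeloid cells are known to express, was no member but had the largest fold change of the tested family partners. It was at 7.77, 8.32, 12.58, 14.89 and 4.67 FPKM in ApoE-/- and at 7.68, 3.37 and 3.52 FPKM in ApoE-/-NPRC-/-, so the groups overlapped. Its log2 fold change was -1.01 by title (SE 0.44, unadjusted p = 0.0488, adjusted p = 0.365 in edgeR) and -0.01 by genotype entry (unadjusted p = 0.988). The 8 macrophage markers, summed, were at 757, 1100, 1570, 1700 and 552 FPKM in ApoE-/- and at 911, 340 and 270 FPKM in ApoE-/-NPRC-/-, none at 0 in any library, and their part in the Hk3 result was not tested.

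**Figure D2:**
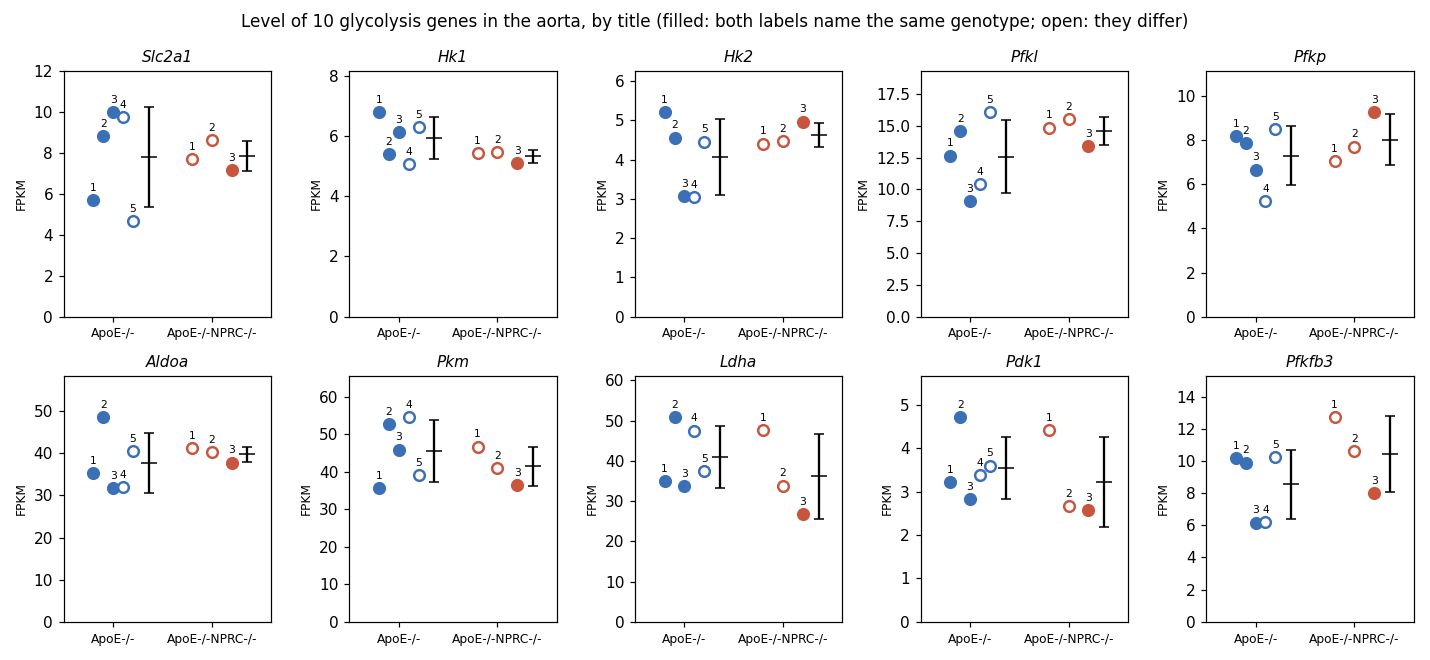
FPKM of each gene (y axis, from 0) is shown for every library by title, with library numbers above the points and the group mean with its SD beside them; open circles mark libraries whose genotype entry names the other genotype. In each of the 10 panels the 3 ApoE-/-NPRC-/- libraries overlap the 5 ApoE-/- libraries, and ApoE-/- 3 and 4 are the lowest libraries for Hk2, Pfkl and Pfkfb3 and the highest for Slc2a1.

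Phosphofructokinase commits the sugar to glycolysis. Pfkl (ENSMUSG00000020277, chr10:77986947-78009807 as assembled, minus strand, 8 annotated transcripts), the liver-type subunit, was at 12.65, 14.58, 9.06, 10.44 and 16.10 FPKM in ApoE-/- and at 14.86, 15.55 and 13.38 FPKM in ApoE-/-NPRC-/-. In FPKM it was the highest subunit in every library, at 41.4 to 52.3% of the summed FPKM of the 3 subunits. That order depends on the length assigned to each locus. In counts Pfkp was above Pfkl in ApoE-/-NPRC-/- 3 (12997 against 9313) and below it in ApoE-/-NPRC-/- 1 (9865 against 10339). For Pfkl, ApoE-/- 3 and 4 were again the lowest, and ApoE-/- 5 exceeded all ApoE-/-NPRC-/- libraries in FPKM. For Pfkl the log2 fold change was 0.25 (SE 0.16, adjusted p = 0.501 in edgeR), and 0.03 (SE 0.19, adjusted p = 1) by genotype entry.

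Pfkp (ENSMUSG00000021196, chr13:6579768-6648777, minus strand, 13 transcripts), the platelet-type subunit, was at 8.18, 7.87, 6.67, 5.24 and 8.5 FPKM in ApoE-/- and at 7.06, 7.72 and 9.30 FPKM in ApoE-/-NPRC-/-. Here ApoE-/- 4 was the lowest and ApoE-/-NPRC-/- 3 the highest, with the rest mixed. Pfkp had a log2 fold change of 0.18 (SE 0.17, adjusted p = 0.655 in edgeR), and 0.07 (SE 0.18, adjusted p = 1) by genotype entry. By title it was 0.03 without ApoE-/-NPRC-/- 3 and 0.28 without ApoE-/-NPRC-/- 1. Pfkm, the muscle-type subunit, shared its locus with another gene model and was at 5.91 to 8.74 FPKM in ApoE-/- and at 6.47 to 8.34 FPKM in ApoE-/-NPRC-/-, with a log2 fold change of 0.16 by title and -0.01 by genotype entry.

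Pfkfb3 (ENSMUSG00000026773, chr2:11471433-11554077 in the annotation, minus strand, 21 transcripts) makes fructose 2,6-bisphosphate, the strongest activator of phosphofructokinase. It was at 10.19, 9.90, 6.17, 6.20 and 10.26 FPKM in ApoE-/- and at 12.73, 10.60 and 8.0 FPKM in ApoE-/-NPRC-/-. Libraries ApoE-/- 3 and 4 lay below all others, and ApoE-/-NPRC-/- 3 lay below the other 3 ApoE-/- libraries, so the groups overlapped. With means of 8.54 ± 2.16 FPKM (SD, n = 5) and 10.4 ± 2.37 FPKM (SD, n = 3), it had the largest fold change of the members. That log2 fold change of Pfkfb3 was 0.32 (SE 0.20, adjusted p = 0.497 in edgeR) by title and -0.25 (SE 0.22, adjusted p = 1) by genotype entry. Without ApoE-/- 3 and 4, left out after seeing the data, it was 0.13.

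Its relatives were lower. Pfkfb4, another isozyme that makes the same activator, was at 2.02, 2.87, 3.22, 3.43 and 1.81 FPKM in ApoE-/- and at 2.44, 1.08 and 1.27 FPKM in ApoE-/-NPRC-/-, with a log2 fold change of -0.74 (adjusted p = 0.38 in edgeR) by title and -0.07 by genotype entry. Pfkfb2, whose locus also carried the names Gm29427 and C4bp-ps1, was at 1.71 to 2.09 FPKM in ApoE-/- and 1.8 to 2.01 FPKM in ApoE-/-NPRC-/-. Pfkfb1 did not reach the FPKM filter and was not tested, at 0.25 to 0.87 FPKM and 0.61 to 1.13 FPKM. Its locus still had 813 to 2628 counts in ApoE-/- and 2098 to 3876 counts in ApoE-/-NPRC-/-.

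Aldolase cleaves fructose 1,6-bisphosphate into the triose phosphates. Aldoa (ENSMUSG00000030695, chr7:126795234-126800751, minus strand, 12 transcripts) was counted in 1 assembled locus together with its neighbour Ppp4c, so its counts include those of a phosphatase subunit. That locus was at 35.36, 48.62, 31.80, 31.94 and 40.48 FPKM in ApoE-/- and at 41.30, 40.28 and 37.78 FPKM in ApoE-/-NPRC-/-. The ApoE-/-NPRC-/- libraries sat close together in the middle of the ApoE-/- range. The log2 fold change of the Aldoa locus was 0.11 (SE 0.15, adjusted p = 0.775 in edgeR), and -0.07 (SE 0.17, adjusted p = 1) by genotype entry. Aldoc, the brain isozyme, was too low to be tested, at 0.27 to 0.66 FPKM in ApoE-/- and 0.03 to 0.13 FPKM in ApoE-/-NPRC-/-, values that did not overlap. By genotype entry the Aldoc values overlapped, with means of 0.28 and 0.29 FPKM. Among the loci tested, titled groups did not overlap for 7.41%.

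Pyruvate kinase makes pyruvate and ATP in the last step. The Pkm locus (ENSMUSG00000032294, chr9:59656368-59679375, plus strand, 11 transcripts), which also carried a second gene model name, was at 35.73, 52.76, 45.96, 54.66 and 39.15 FPKM in ApoE-/- and at 46.77, 41.12 and 36.48 FPKM in ApoE-/-NPRC-/-. It was the most abundant member on average, 44.1 ± 7.16 FPKM (SD, n = 8), and exceeded Ldha in 7 of 8 libraries. The muscle and proliferative splice forms PKM1 and PKM2 were counted together. Pkm had a log2 fold change of -0.13 (SE 0.20, adjusted p = 0.799 in edgeR), and 0.002 (SE 0.21, adjusted p = 1) by genotype entry.

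Lactate dehydrogenase A turns pyruvate into lactate. Ldha (ENSMUSG00000063229, chr7:46841475-46855627, plus strand, 15 transcripts) was at 35.05, 50.89, 33.62, 47.52 and 37.51 FPKM in ApoE-/- and at 47.73, 33.85 and 26.74 FPKM in ApoE-/-NPRC-/-. ApoE-/-NPRC-/- 3 was the lowest of all libraries, while ApoE-/-NPRC-/- 1 was among the highest, so the spread within that group was 10.7 FPKM (SD, n = 3) around a mean of 36.1 FPKM. The log2 fold change of Ldha was -0.17 (SE 0.21, adjusted p = 0.75 in edgeR), and -0.07 (SE 0.23, adjusted p = 1) by genotype entry. Without ApoE-/-NPRC-/- 1 it was -0.40, and without ApoE-/-NPRC-/- 3 it was -0.01, neither past an unadjusted p-value of 0.05. Ldhb, the subunit that favours lactate use, was at 23.56, 47.68, 17.36, 21.04 and 36.29 FPKM in ApoE-/- and at 38.89, 34.18 and 26.21 FPKM in ApoE-/-NPRC-/-, with a log2 fold change of 0.22 by title and -0.19 by genotype entry.

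Pyruvate dehydrogenase kinase 1 switches off pyruvate dehydrogenase and so keeps pyruvate in the cytosol. Pdk1 (ENSMUSG00000006494, chr2:71873224-71903858, plus strand, 8 transcripts) had the lowest mean FPKM of the members. It was at 3.22, 4.72, 2.82, 3.38 and 3.60 FPKM in ApoE-/- and at 4.42, 2.67 and 2.57 FPKM in ApoE-/-NPRC-/-. As with Ldha, ApoE-/- 2 and ApoE-/-NPRC-/- 1 were high, and ApoE-/-NPRC-/- 2 and 3 were low. Pdk1 thus had a log2 fold change of -0.12 (SE 0.21, adjusted p = 0.823 in edgeR), and -0.13 (SE 0.21, adjusted p = 1) by genotype entry. It was -0.39 without ApoE-/-NPRC-/- 1 and 0.02 without ApoE-/-NPRC-/- 2, again without passing an unadjusted p-value of 0.05.

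The levels of the members, compared in FPKM over all 8 libraries, fell into steps that depend on the length assigned to each locus. Pkm, Ldha (39.1 ± 8.57) and Aldoa (38.4 ± 5.55) were the highest, and Ldha exceeded Aldoa in only 4 of 8 libraries. Pfkl followed at 13.3 ± 2.49, below the Aldoa locus and above Pfkfb3 (9.26 ± 2.29) in all 8. Slc2a1 (7.81 ± 1.89) and Pfkp (7.57 ± 1.24) did not separate, with Slc2a1 higher in 5 of 8 libraries. Below Pfkp in all 8 libraries came Hk1 (5.71 ± 0.629), and Hk1 exceeded Hk2 (4.28 ± 0.802) in all 8. Hk2 exceeded Pdk1 in 5 of 8. In counts, which are not corrected for length, the order differed. There Hk2 exceeded Hk1 in every library (13407 against 5713 in ApoE-/- 1), and Pfkfb3 exceeded Pfkl in every library (21504 against 8306 in ApoE-/- 1). The order in FPKM is therefore no firm ranking of the genes.

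Each isozyme was next expressed as a share of the summed FPKM of its family, which removes changes that the whole family shares. The size of a share also depends on the length assigned to each locus. The question was whether the balance of isozymes differed between genotypes. By title, 0 of the 6 shares reported passed a two-sided exact permutation test, for which the smallest possible p-value with 5 against 3 libraries is 0.0357. The Pfkfb3 share among Pfkfb1 to Pfkfb4 was 67.5, 63.6, 54.1, 52.2 and 69.3% in ApoE-/- and 69.7, 73.0 and 68.5% in ApoE-/-NPRC-/-. It was on average 9.03 percentage points higher in ApoE-/-NPRC-/- (exact p = 0.0714, 0.3 adjusted over 7 shares), and the groups overlapped. By genotype entry it was 2.25 points lower (exact p = 0.679), so the direction of this share rests on the label. By title the difference was 3.58 points without ApoE-/- 3 and 4, and 3.25 points when counts took the place of FPKM (exact p = 0.0357, unadjusted).

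The Hk2 share among Hk1, Hk2 and Hk3 was 26.4, 24.9, 14.1, 13.3 and 28.9% in ApoE-/- and 25.2, 33.7 and 36.6% in ApoE-/-NPRC-/-. This amounted to 10.3 points more in ApoE-/-NPRC-/- by title (exact p = 0.107, 0.3 adjusted) and 1.41 points more by genotype entry (exact p = 0.821). The low shares in ApoE-/- 3 and 4 stood beside the highest Hk3 levels, and without those libraries the difference was 5.07 points. In FPKM Hk3 was the highest of the 3 in 5 libraries, ApoE-/- 1 to 4 and ApoE-/-NPRC-/- 1, and the lowest in ApoE-/-NPRC-/- 2 and 3. In counts, not corrected for length, Hk3 was below Hk2 in every library (6351 against 7917 in ApoE-/- 3).

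The Ldha share of Ldha and Ldhb was 59.8, 51.6, 65.9, 69.3 and 50.8% in ApoE-/- and 55.1, 49.8 and 50.5% in ApoE-/-NPRC-/-. In FPKM the A subunit thus held about as much as the B subunit or more. In counts, not corrected for length, Ldha was well above Ldhb in every library (14410 against 3638 in ApoE-/- 1). The Ldha share differed by -7.72 points by title (exact p = 0.179) and 0.432 points by genotype entry (exact p = 1). The Slc2a1 share of Slc2a1, Slc2a3 and Slc2a4 was 32.0, 32.5, 61.3, 51.6 and 22.2% in ApoE-/- and 30.0, 33.1 and 31.9% in ApoE-/-NPRC-/-, a difference of -8.24 points (exact p = 0.5) and -2.54 points by genotype entry. It was -2.9 points without ApoE-/- 3, -12.7 points without ApoE-/- 5 and 2.76 points without both ApoE-/- 3 and 4. Only ApoE-/- 3 and 4 had more Slc2a1 than Slc2a4.

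Pdk1 made up a minor part of the pyruvate dehydrogenase kinases, 5.76 to 11.1% of their summed FPKM, while Pdk4, the isozyme induced by fasting and fat use, made up 33.4 to 49.4% and Pdk2 23.5 to 36.4%. The Pdk1 share differed by -2.21 points by title (exact p = 0.214) and -1.56 points by genotype entry (exact p = 0.429). The Pfkp share was 24.3 to 30.7% over all libraries and differed by -0.746 points (exact p = 0.75).

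**Figure D3:**
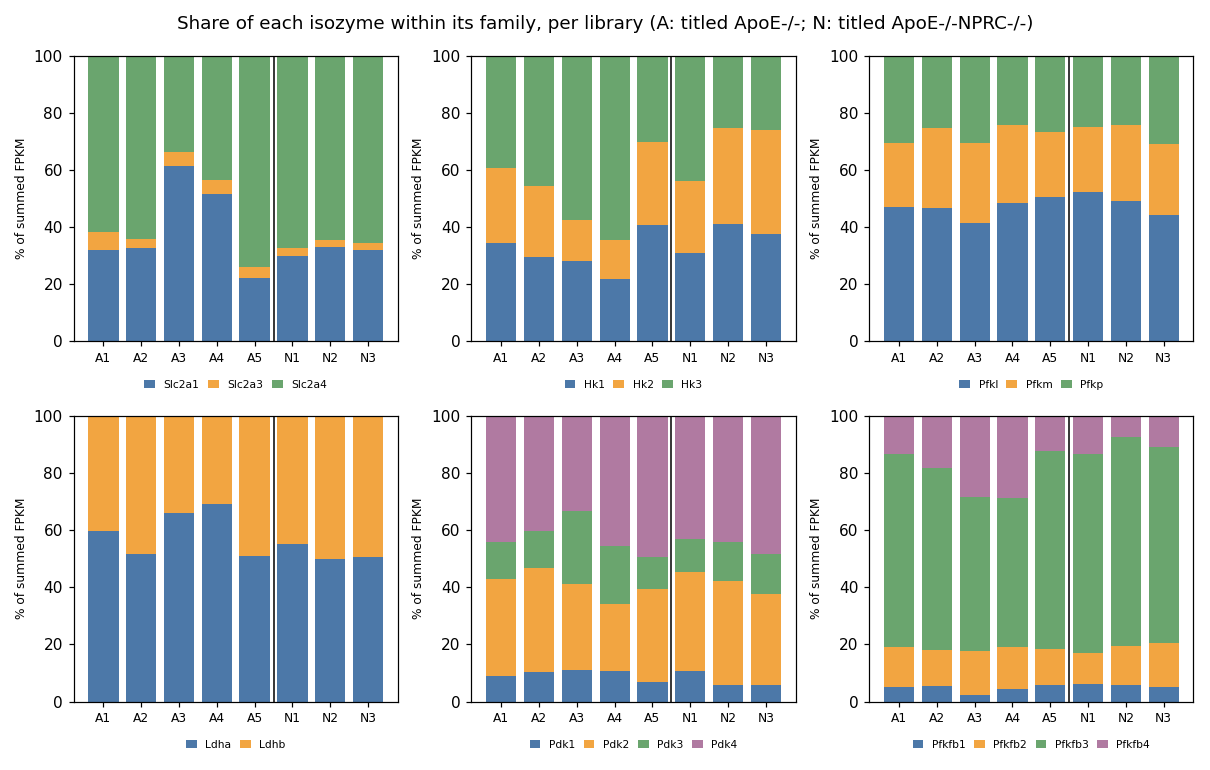
Stacked bars give the percentage of the summed FPKM of each family (y axis) that each isozyme took in each library (x axis; A, titled ApoE-/-; N, titled ApoE-/-NPRC-/-; the line divides them). In A3 and A4 Slc2a1 outweighs Slc2a4, Hk3 outweighs Hk1 and Hk2 together in FPKM, and Pfkfb4 takes its largest share. In FPKM Pfkl leads the phosphofructokinase family in every library. The Hk3 and Pfkl leads depend on the length assigned to each locus, and neither holds throughout in counts.

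The other genes of the pathway were read from lists chosen by function, with earlier results of these data known. Among 29 other glycolytic and lactate handling genes, 23 were tested, of which 3 fell and 1 rose at an unadjusted p-value under 0.05, with a median log2 fold change of -0.12. These 4 of 23 stand beside 13.6% of all loci tested. Besides Hk3, the falls were in Eno2, the neuronal enolase (-0.64, unadjusted p = 0.0286, adjusted p = 0.326 in edgeR), and Bpgm, which makes 2,3-bisphosphoglycerate in red cells (-0.40, unadjusted p = 0.0276, adjusted p = 0.324). Neither gene's titled groups overlapped. In log2 CPM that held for 3 lower and 1 higher of the 23 tested genes of this list, and for 7.41% of all loci tested. Tigar, a phosphatase that lowers fructose 2,6-bisphosphate and so opposes Pfkfb3, rose by title without overlap, with 1.62 to 2.06 FPKM in ApoE-/- and 2.08 to 2.43 FPKM in ApoE-/-NPRC-/- (log2 fold change 0.39, unadjusted p = 0.0183, adjusted p = 0.309 in edgeR). By genotype entry 0 of these 23 genes were called, and Tigar was at 0.05, Bpgm at 0.16 and Eno2 at -0.13.

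Of the enzymes of the lower pathway, Eno1, Pgk1, Tpi1 and Gapdh did not pass the test. Eno1, the main enolase, was at 42.03 to 78.2 FPKM in ApoE-/- and 47.35 to 67.46 FPKM in ApoE-/-NPRC-/-, with a log2 fold change of 0.05 by title and -0.10 by genotype entry. Pgk1, phosphoglycerate kinase, was at 32.78 to 59.58 FPKM and 30.88 to 49.24 FPKM, with a log2 fold change of -0.12 by title and -0.10 by genotype entry. Tpi1, triose phosphate isomerase, shared its locus with Usp5 and had a log2 fold change of -0.29 by title and -0.11 by genotype entry. Gapdh, often used as a reference gene, was listed at only 2.06 to 6.27 FPKM in ApoE-/- and 2.08 to 5.94 FPKM in ApoE-/-NPRC-/-, far below Pgk1 and Eno1, which act beside it, with a log2 fold change of -0.27 by title and -0.15 by genotype entry. Gapdh, Aldoa, Pkm and Ldha are known to have many processed pseudogenes, how shared reads were assigned is not given in the sources used here, and their levels are therefore uncertain.

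On either side of the path little passed the test. Of 13 genes for pyruvate entry into the mitochondrion, 0 were called in edgeR at an unadjusted p-value under 0.05 (median log2 fold change 0.04). Their smallest p-values were those of Pdp2 (0.39, unadjusted p = 0.161), a phosphatase that activates pyruvate dehydrogenase, Pdk2 (0.36, unadjusted p = 0.195) and Pdk4 (0.32, unadjusted p = 0.267), which were at -0.16, -0.05 and 0.37 by genotype entry. Of 8 pentose phosphate pathway genes, 0 were called (median -0.08), and Taldo1, transaldolase, came nearest (-0.33, unadjusted p = 0.151), followed by Pgls (-0.46, unadjusted p = 0.208) and Pgd (-0.20, unadjusted p = 0.302). By genotype entry these were at -0.03, -0.24 and -0.09. The Pgls locus also carried the name Fam129c. Among genes for gluconeogenesis and glycogen, Pygm, the glycogen phosphorylase of muscle (0.46, unadjusted p = 0.0824), and Ppp1r3c, which directs a phosphatase to glycogen (0.53, unadjusted p = 0.0845), did not pass, and were at 0.17 and -0.28 by genotype entry.

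**Figure D4:**
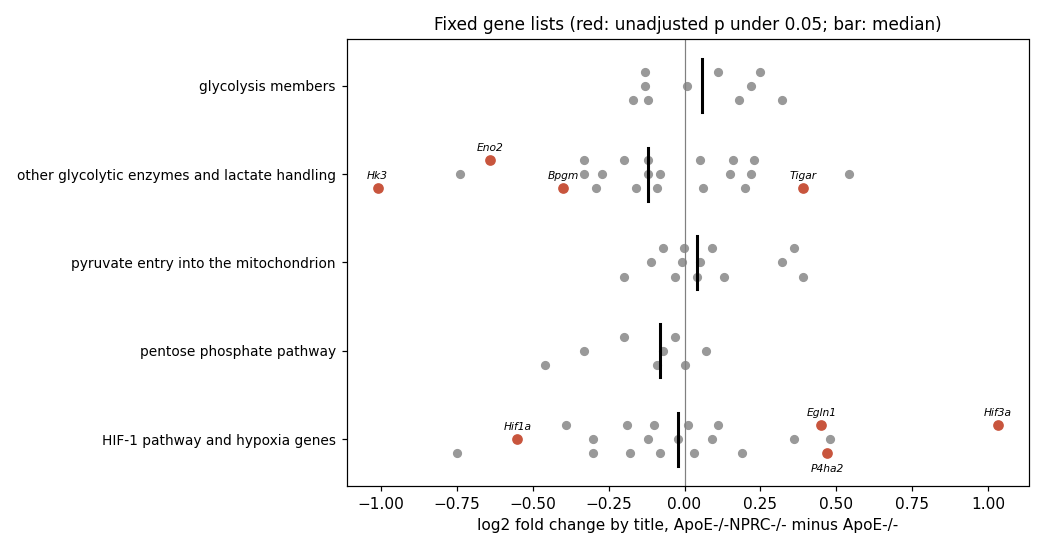
Each point is the log2 fold change by title (x axis, ApoE-/-NPRC-/- minus ApoE-/-) of a tested gene in its list, red at an unadjusted p-value under 0.05 in edgeR, and the bar is the list median. The 10 glycolysis genes form the narrowest row and hold no red point, while 4 genes are red in the list of other glycolytic genes and 4 in the HIF-1 list.

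The HIF-1 pathway and hypoxia list had 21 tested genes, of which 1 fell and 3 rose at an unadjusted p-value under 0.05, with a median log2 fold change of -0.02. These 4 of 21 likewise stand beside 13.6% of all loci tested. Hif1a, the regulated subunit of HIF-1, whose locus also carried the name of its neighbour Snapc1, was at 9.67, 10.35, 12.29, 12.73 and 8.17 FPKM in ApoE-/- and at 9.02, 6.21 and 6.47 FPKM in ApoE-/-NPRC-/-. It fell by title (-0.55, unadjusted p = 0.0321, adjusted p = 0.328 in edgeR) and was at -0.03 by genotype entry. Egln1, the oxygen sensor that marks HIF-1 for degradation, rose from 14.0 to 18.7 FPKM on average (0.45, unadjusted p = 0.00867, adjusted p = 0.277), and was at -0.03 by genotype entry.

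Hif3a, which opposes HIF-1, also rose by title (1.03, unadjusted p = 0.0142, adjusted p = 0.29 in edgeR) and was at -0.04 by genotype entry. P4ha2, a collagen prolyl hydroxylase, rose by title (0.47, unadjusted p = 0.0115, adjusted p = 0.285 in edgeR) and was at 0.20 by genotype entry. Its titled groups did not overlap in FPKM but overlapped in log2 CPM. By genotype entry 0 of the 21 genes were called. HIF-1 is regulated mainly as a protein, which was not measured.

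Libraries of the same title differed among themselves about as much as the titles did, or more. For 8 of 10 members the difference of the titled means was under 1 SD of the libraries titled ApoE-/- on the log2 CPM scale, and for Pfkl and Pfkfb3 it was 1.02 and 1.07 SD. On that scale ApoE-/- 4 held the lowest value of 4 members (Hk2, Pfkp, Aldoa and Pfkfb3) and the highest of Pkm and Ldha. ApoE-/- 3 and 4 together lay below all other libraries in Hk2, Pfkl and Pfkfb3 and above all others in Slc2a1. With both left out, after seeing the data, 0 of 10 members were called and the median log2 fold change was 0.052, with Slc2a1 at 0.38 (unadjusted p = 0.172 in edgeR).

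The same libraries stood apart in markers of some cell types and not of others. Their summed macrophage markers were the highest, as given beside Hk3, and their summed fibroblast markers were at 1330 and 1290 FPKM, against 282 to 873 FPKM in the other 6. Their 5 brown adipocyte markers summed to 114 and 224 FPKM, against 327 to 559 FPKM in the other 6, with none at 0. The locus that includes Rn7s1, a small RNA of the signal recognition particle, took 4.621 and 4.192% of their counts, against 1.324 to 3.453%. White adipocyte, smooth muscle and endothelial markers did not set the pair apart. In ApoE-/- 3 and 4 white adipocyte markers summed to 69.9 and 169 FPKM, against 89.4 to 325 FPKM in the other 6. Smooth muscle markers summed to 1680 and 1380 FPKM, against 1320 to 2920 FPKM, and endothelial markers to 82.5 and 93.0 FPKM, against 76.4 to 91.7 FPKM. By title, 7 of 8 smooth muscle markers rose and 2 of 8 macrophage markers fell at an unadjusted p-value under 0.05 in edgeR, where 6.51% of all loci rose and 7.13% fell, while by genotype entry 0 of either list did. The part of these markers in the levels of the glycolysis genes was not tested.

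**Figure D5:**
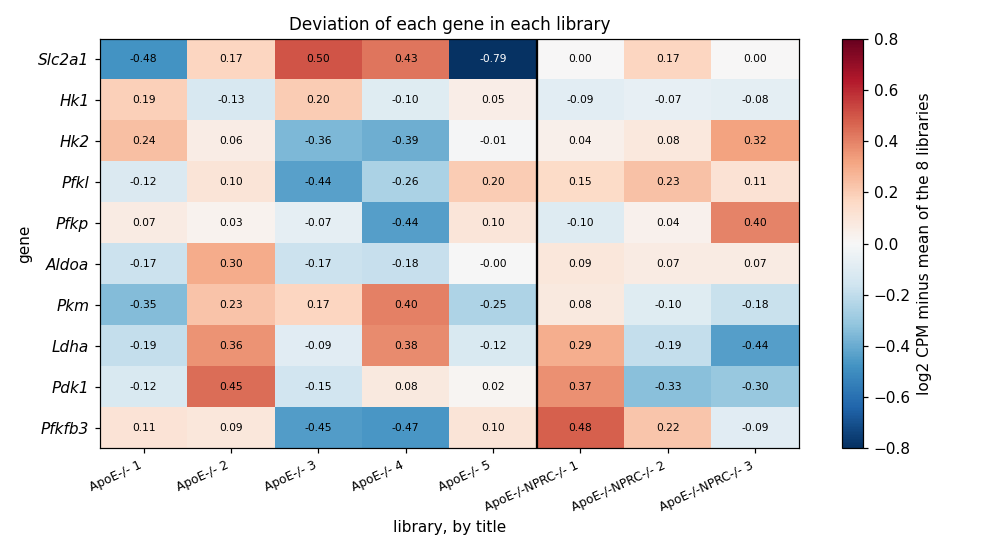
Each cell gives the log2 CPM of a gene (row) in a library (column, by title) minus its mean over the 8 libraries, red above and blue below, and the line divides the titled groups. ApoE-/- 3 and 4 are blue for Hk2, Pfkl and Pfkfb3 and red for Slc2a1, ApoE-/- 1 and 5 are blue for Slc2a1, and in every row the values of the 2 groups overlap.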

How the data were processed

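RNA-seq libraries of 8 mouse aortas were compared. The authors trimmed the reads (cutadapt 1.9, per the submitters' processing notes), mapped them to GRCm38 with HISAT2 and assembled them with StringTie. The authors deposited whole-number counts per assembled locus, without normalization, and FPKM values, scaled to length and mapped fragments. How the counts were made and whether strand was used is not given in the sources used here. Columns that could not be tied to a sample numbered 0. The paper states n = 5 per group for both genotypes, and 5 and 3 libraries were analysed here.

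Counts were fitted for the 20506 loci that reached 1 FPKM in 3 or more libraries, with R 4.3.3 and edgeR 4.0.16 (TMM, quasi-likelihood test, Benjamini-Hochberg adjustment over all loci). Intervals use the moderated residual degrees of freedom. Log2 CPM values have a prior count of 2. The test was tested on simulated data. Isozyme shares were compared with two-sided exact permutation tests (scipy 1.17.1), adjusted over 7 shares, of which 6 are reported. Results of a few genes are not reported here. Alternatives used DESeq2 1.42.0, limma 3.58.1, other scalings and filters, the genotype entry, a replicate block and each library left out. Counting error is small at these depths (62969165 to 86693276 counts), so precision depends on how many libraries there are (biological coefficient of variation 0.327). The members and gene lists were chosen with earlier results of these data known. Named were all members, their family partners, Npr3 and, of each other list of pathway genes, the 3 loci with the smallest unadjusted p-value by title; Eno1, Pgk1, Tpi1, Gapdh and Hif1a were named after their values were seen. Promoters and positions come from RefSeq (GRCm38.p6) and GENCODE M21 (GRCm38).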

Additional observations from a re-analysis of the deposited data

Results flagged for a closer look

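Of 32 groups of 5 libraries examined over the members and the isozyme shares, 1 held a library far from the others, where chance gives about 1 in 20. The Slc2a1 share of its family was 61.3% in ApoE-/- 3, against 30.0 to 33.1% in the other libraries entered as ApoE-/-.

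A second, weak locus with the name Aldoa, just upstream on the same strand (chr7:126800790-126809108), was outside the comparisons. It had a mean of 0.22 FPKM in the libraries titled ApoE-/-NPRC-/- and 0.114 FPKM in those titled ApoE-/-, with groups that did not overlap. Titled groups did not overlap for 7.41% of the loci tested. By genotype entry this locus overlapped, at 0.06 to 0.21 FPKM in ApoE-/- and 0.09 to 0.25 FPKM in ApoE-/-NPRC-/-. It was too low to be tested.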

How the results depend on the processing

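The count of members past an unadjusted p-value under 0.05, and past the study's criterion, was 0 under every alternative that gave a test. The median log2 fold change of the members was 0.057 and ranged from -0.012 to 0.124 with 1 library left out. It was -0.07 by genotype entry, -0.035 in the 4 libraries whose labels agree (3 against 1, values only, with Pfkfb3 at -0.007, Ldha at -0.46 and Pdk1 at -0.36), 0.104 with upper-quartile scaling and 0.161 over the 8 members with a mean of at least 5 FPKM. Sign changes by genotype entry were found for Slc2a1 (-0.14), Hk2 (-0.03), Aldoa (-0.07), Pkm (0.002) and Pfkfb3 (-0.25), and for the shares of Pfkp (0.121 points), Ldha (0.432) and Pfkfb3 (-2.25). Slc2a1 ranged from -0.14 to 0.16 with 1 library left out (-0.1 without ApoE-/- 1, -0.14 without ApoE-/- 5, -0.03 without ApoE-/-NPRC-/- 2), Pdk1 from -0.39 to 0.02 (0.02 without ApoE-/-NPRC-/- 2, 0.002 without ApoE-/-NPRC-/- 3), and Pkm was 0.05 without ApoE-/- 3 and 4. None of these values was past the threshold. From counts in place of FPKM, the Pfkfb3 share was 3.25 points higher by title (exact p = 0.0357, unadjusted, the smallest the design allows), and the cause was not tested.

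Replicate numbers are shared between titles. Deviations from the titled group means had correlations of -0.274, -0.128 and -0.012 between same-numbered libraries. Between differently numbered libraries the correlations ran from -0.166 to 0.247. Deviations within a group sum to 0 and the libraries are few, so these values cannot decide whether the libraries were paired. With a replicate block on the 6 libraries numbered 1 to 3, 0 members were called, the median was 0.041 (0.006 without the block) and Slc2a1 was at -0.005 (-0.06 without the block). The block moved the number of loci with an unadjusted p-value under 0.05 from 2651 to 1813. Over all loci that number was 2797 by title, 269 by genotype entry, 5909 with array quality weights and 4666 without a filter, and it ran from 1332 (without ApoE-/-NPRC-/- 2) to 4431 (without ApoE-/-NPRC-/- 1) with 1 library left out. At an adjusted p-value under 0.05 it was 0 in the main edgeR fit and 2 in edgeR on loci with a mean of at least 5 FPKM. It was 45 without ApoE-/-NPRC-/- 1, 0 to 2 without each other library, 650 in DESeq2 and 1168 with array quality weights. The shares with 1 library left out, or with 3 against 3, were compared as values only.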
